A study of Mus musculus with 3 samples.

Results

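Chromatin-bound RNA of 9 chemokine system genes was examined in mouse bone-marrow-derived macrophages. The genes were the CXC chemokine ligands Cxcl1, Cxcl2, Cxcl3, Cxcl9, Cxcl10 and Cxcl16 and the chemokine receptor genes Cxcr4, Ccr1 and Ccrl2. They were chosen by symbol, not by a measured value, though earlier results of these data were known. The genes are 9 of 55536 annotated genes, 22028 of them protein-coding. The series holds 3 libraries of 1 group, labelled biological replicates 1, 2 and 3, which share 1 donor identifier. The primary cells came from C57BL/6J mice, and the labels give neither sex nor age. Each culture had Lipid A, the TLR4-activating part of bacterial lipopolysaccharide, at 100 ng per ml for 12 h, then a washout of 12 h, and was taken at minute 0 of renewed Lipid A exposure at that dose. The RNA was total RNA of the chromatin fraction with ribosomal RNA depleted, so it holds nascent and nuclear-retained transcripts. No untreated group is part of the design, and every value below is a level in this state, not a response. Nothing in the labels says that the cultures came from separate animals, so the spread between libraries may be partly technical.

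CXC chemokines are small secreted or membrane-anchored proteins that guide leukocytes through G protein-coupled receptors. Macrophages make Cxcl1, Cxcl2 and Cxcl3, the neutrophil attractants that act on Cxcr2, under NF-kB, and make Cxcl9 and Cxcl10, the attractants of activated T cells that act on Cxcr3, under interferon and NF-kB together. Cxcl16 is a transmembrane chemokine and scavenger receptor that binds Cxcr6. Cxcr4 is the receptor of Cxcl12, Ccr1 is an inflammatory receptor of Ccl3, Ccl5 and their relatives, and Ccrl2 is an atypical receptor that binds chemerin without signalling through G proteins.

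Of the 6 ligand genes, 5 lie in a pair of clusters on chromosome 5, and the sequence just upstream of each is printed here because closely related neighbours there differed in level in the gene table. The sequences are from RefSeq on GRCm38.p6, which holds such a window for 8 of the 9 genes (Cxcl16 is the one without), and each is cut where the annotated gene begins. Lower case is the genome sequence 5′ to 3′ on the gene's strand. Capitals mark matches, on either strand, to 4 motifs: the NF-kB motif (GGG and TTCC with any 3 bases between them), the interferon-response element (GAAA repeated after any 2 bases), the AP-1 motif TGANTCA and the TATA box TATAAA. Overlapping matches run together. The windows of Cxcl1 (chr5:90890995-90891240), Cxcl2 (chr5:90903649-90903870) and Cxcl3 (chr5:90785851-90786100) are on the forward strand, and those of Cxcl9 (chr5:92328080-92328329) and Cxcl10 (chr5:92348890-92349139) on the reverse strand.
Cxcl1: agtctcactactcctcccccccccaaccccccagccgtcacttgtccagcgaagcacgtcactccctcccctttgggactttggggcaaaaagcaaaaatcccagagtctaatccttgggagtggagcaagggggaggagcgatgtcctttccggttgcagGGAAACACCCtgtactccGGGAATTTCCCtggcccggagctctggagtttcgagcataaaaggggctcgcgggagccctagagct
Cxcl2: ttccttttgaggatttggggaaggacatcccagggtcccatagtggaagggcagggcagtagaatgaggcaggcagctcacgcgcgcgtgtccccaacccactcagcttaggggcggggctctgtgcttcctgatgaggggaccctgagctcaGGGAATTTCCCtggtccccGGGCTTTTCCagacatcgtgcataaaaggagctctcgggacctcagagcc
Cxcl3: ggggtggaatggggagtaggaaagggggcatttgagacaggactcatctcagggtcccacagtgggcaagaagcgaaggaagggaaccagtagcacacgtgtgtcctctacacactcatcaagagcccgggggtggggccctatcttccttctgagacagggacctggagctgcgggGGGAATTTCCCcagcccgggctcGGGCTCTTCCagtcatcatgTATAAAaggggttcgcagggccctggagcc
Cxcl9: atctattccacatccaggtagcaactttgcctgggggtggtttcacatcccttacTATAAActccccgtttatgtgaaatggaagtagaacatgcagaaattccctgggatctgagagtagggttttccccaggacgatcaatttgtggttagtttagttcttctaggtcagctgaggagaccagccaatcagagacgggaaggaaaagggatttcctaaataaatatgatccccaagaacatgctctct
Cxcl10: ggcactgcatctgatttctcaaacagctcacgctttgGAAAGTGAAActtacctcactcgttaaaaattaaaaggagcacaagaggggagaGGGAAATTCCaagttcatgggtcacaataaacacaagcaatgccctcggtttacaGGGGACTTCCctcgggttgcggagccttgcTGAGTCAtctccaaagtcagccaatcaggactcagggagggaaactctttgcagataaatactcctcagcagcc

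The windows of Cxcl1, Cxcl2 and Cxcl3 each held the same 10 letters, GGGAATTTCC, beginning 71, 97 and 73 bases before the RefSeq start, and each held a further NF-kB match. The NF-kB motif occurred in 4.65% of 32851 such 250-base windows of all genes. The Cxcl10 window held GGGAAATTCC and GGGGACTTCC, an interferon-response element GAAAGTGAAA and an AP-1 match TGAGTCA. The last 2 motifs occurred in 2.98% and 6.75% of all windows. Of the 4 motifs, the Cxcl9 window held an exact match only to TATAAA, 195 bases before its start, and TATAAA occurred in 12.4% of all windows. Among the receptor genes, the Cxcr4 window held TATAAA and the Ccr1 and Ccrl2 windows held none of the 4 motifs. A match is a run of letters, not a bound site, and sequences close to a motif were not searched for. A link between motifs and level was not tested.

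Levels are given in TPM (a length-scaled transcript abundance with an equal total in every library) from the gene table, which rests on reads aligned to the transcriptome. Cxcl10 was the highest of the 9 genes, with 158.3, 86.3 and 86.1 TPM in replicates 1, 2 and 3 (110.2 ± 41.6 TPM, SD, n = 3), and ranked 499 among protein-coding genes. It rested on 2458, 1210 and 1723 expected counts. Cxcl16 followed with 19.7, 17.4 and 22.1 TPM. Then came Cxcl2 with 4.55, 3.46 and 7.87 TPM and Ccrl2 with 6.10, 3.76 and 3.76 TPM. Cxcr4 had 2.45, 1.87 and 2.16 TPM, and Ccr1 had 1.33, 1.66 and 2.65 TPM. Cxcl1 stayed under 1 TPM in each library, and Cxcl3 and Cxcl9 had between 0 and 2 expected counts.

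In the order of levels, the ranges of neighbouring genes did not overlap between Cxcl10 and Cxcl16, whose means were 5.59-fold apart, nor between Cxcl16 and Cxcl2, 3.73-fold apart. Cxcl2 and Ccrl2 could not be ordered, since Cxcl2 was the higher in only 1 of 3 libraries. Ccrl2 was above Cxcr4 in all 3 libraries. Cxcr4 and Ccr1 overlapped, with Cxcr4 the higher in 2 of 3. Ccr1 was above Cxcl1 in all 3. Cxcl1 was listed above Cxcl3 in all 3, but the counting intervals of the pair overlapped in replicates 1 and 2, and Cxcl3 and Cxcl9 were not separated. In all, 6 of the 9 genes had at least 1 TPM in every library, against a background of 46.1% of protein-coding genes. The other 3 were under 1 TPM in every library, as were 47.4% of protein-coding genes, and 2 averaged at least 10 TPM, as did 27.2%. The median log2(TPM + 1) of the 9 genes was 1.66, against 0.94 over all protein-coding genes.

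**Figure D1:**
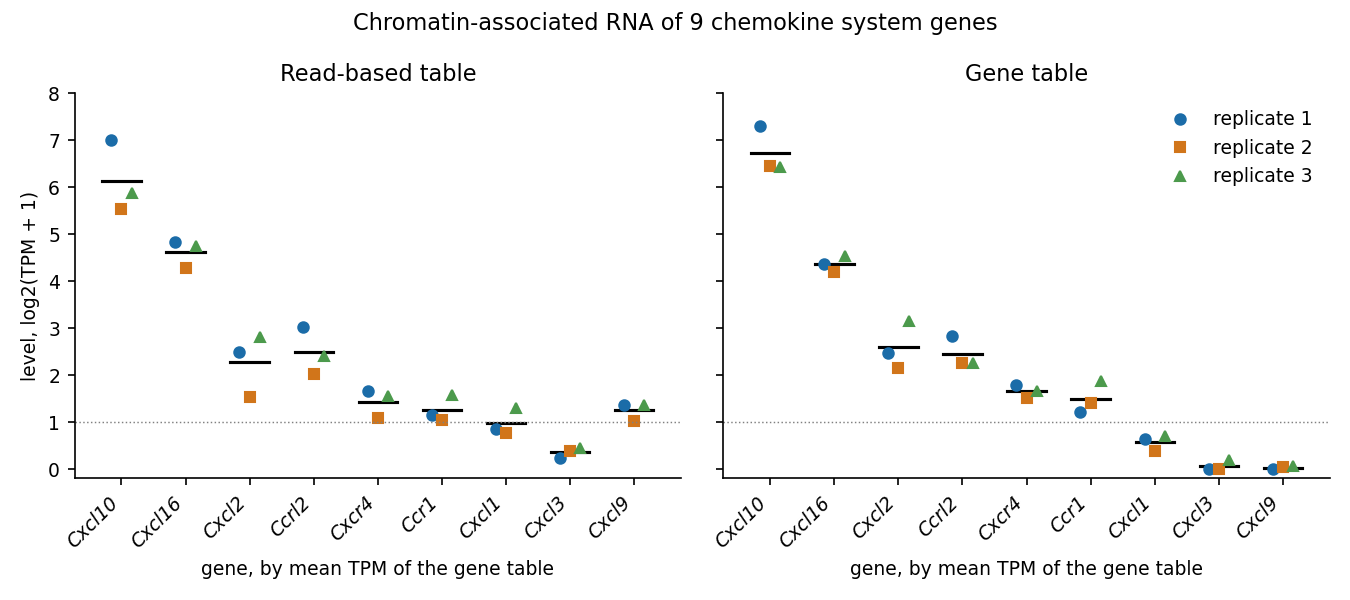
Level of each of the 9 genes in each library, as log2(TPM + 1), in the read-based table (left) and the gene table (right). Points are libraries, short lines are means of the log2 values, and the dotted line is 1 TPM. Cxcl10 is highest in both, with replicate 1 above the other 2 libraries, and Cxcl9 is at 1.04 to 1.59 TPM in the read-based table and near 0 in the gene table.

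Among the neutrophil-attracting ligands, Cxcl2 was the highest in the gene table, and the read-based table did not set it so far apart. Cxcl2 (ENSMUSG00000058427.10, mm10 chr5:90903871-90905938, forward strand) averaged 5.29 ± 2.30 TPM on 78, 65 and 193 counts. Replicate 3 was the highest, and without it the mean was 4.01 TPM. Cxcl1 (ENSMUSG00000029380.11, chr5:90891241-90893115), its neighbour 10756 bases upstream on that strand, had 0.55, 0.30 and 0.62 TPM on 7, 4 and 15 counts. The exact 95% Poisson intervals of those counts were 2.81 to 14.4, 1.09 to 10.2 and 8.40 to 24.7. Intervals and floors here cover counting error only. Cxcl3 had no counts in replicates 1 and 2 and 2 counts in replicate 3; the floor of 3 counts used here for a count of 0 equals 0.254 and 0.174 CPM (counts per 1000000) in those libraries, and the two-sided Poisson interval of a 0 reaches 3.69 counts. Over a list of 6 such ligands, the other members being Cxcl5, Cxcl15 and Ppbp, 3 reached 1 TPM in every library of the read-based table, against 1, Cxcl2, in the gene table. Read-based, Cxcl2 averaged 4.20 TPM, Cxcl15 3.26 TPM and Cxcl5 2.87 TPM, against 5.29, 0.10 and 0.087 TPM in the gene table. Cxcl15 exceeded Cxcl2 in replicate 2 of the read-based table, at 4.20 against 1.92 TPM, so the lead of Cxcl2 over these 2 genes depends on the quantification. Of their receptors, Cxcr2 averaged 4.34 TPM in the read-based table and had 0, 0.04 and 0 TPM in the gene table. Cxcr1 averaged 0.014 TPM read-based and was at 0 in all 3 libraries of the gene table.

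Of the pair of interferon-inducible ligands, Cxcl10 was high and Cxcl9 was close to 0 in the gene table. Cxcl9 lies 18559 bases from Cxcl10 on the same strand, with 0, 0.03 and 0.04 TPM on 0, 1 and 2 counts. Cxcl11, the third ligand of Cxcr3, is annotated as a polymorphic pseudogene in this strain's reference. It averaged 3.76 TPM read-based and had 2.06, 0.60 and 0.74 TPM in the gene table, where the mean was 0.67 TPM without replicate 1. Cxcl10 made up 86.4%, 80.3% and 73.7% of the summed TPM of the 6 ligand genes in replicates 1, 2 and 3, and Cxcl16 made up 10.8%, 16.1% and 18.9%. Those are shares in the gene table. Read-based, Cxcl10 made up 78.7%, 67.0% and 62.0% and Cxcl16 16.9%, 27.1% and 27.8%. Cxcl10 had the largest share in every library of both. Art3, an ADP-ribosyltransferase family gene, overlaps Cxcl10 on the opposite strand and averaged 5.34 ± 1.73 TPM. It shares 4.47% of the 31-base words of Cxcl10 transcripts. Which strand setting was used for counting was not stated in the labels or file headers, so reads from the overlap cannot be assigned with certainty.

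**Figure D2:**
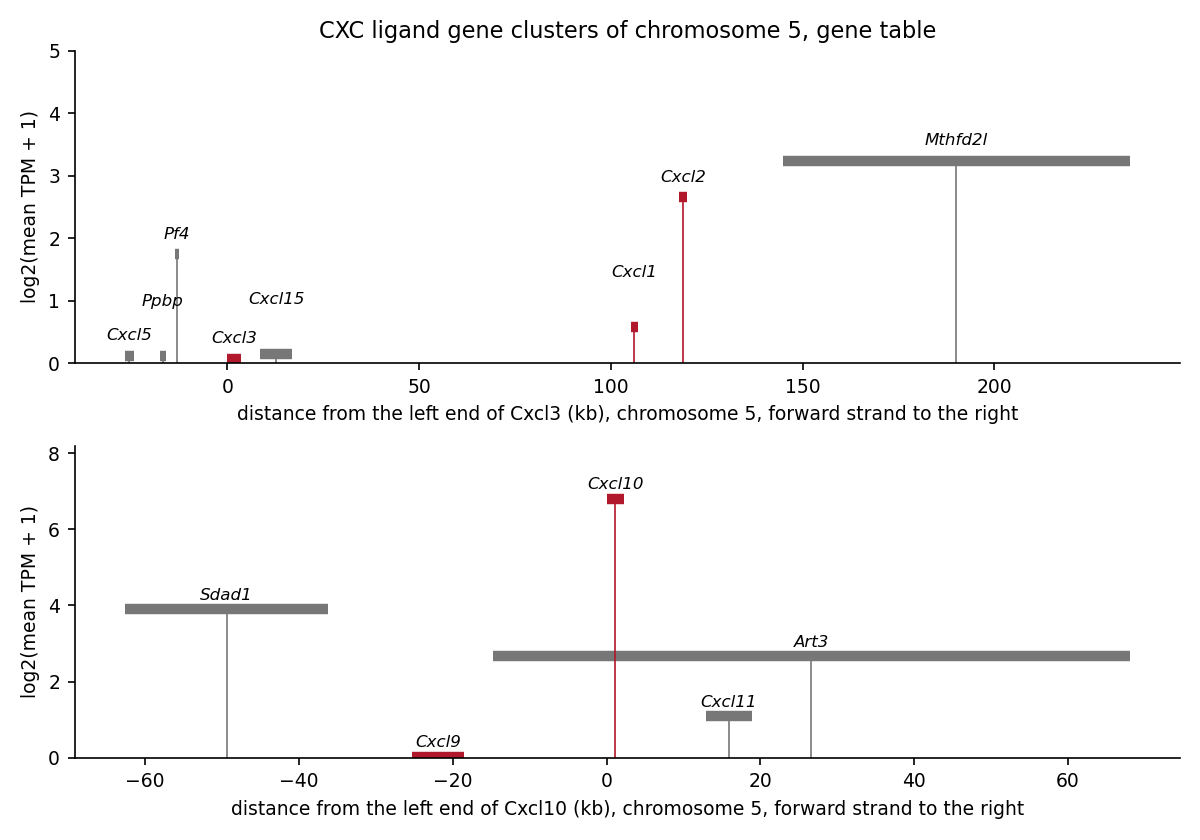
Mean level over 3 libraries, as log2(TPM + 1) in the gene table, of the genes in the Cxcl1 to Cxcl3 cluster (top) and the Cxcl9 to Cxcl11 cluster (bottom), against distance in kb. Bars span each gene and red marks the genes described here. Cxcl2 at 5.29 TPM and Cxcl10 at 110.2 TPM stand above their chemokine neighbours.

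Cxcl16, on chromosome 11, varied least of the 6 genes tested below, with a mean of 19.7 ± 2.38 TPM on 476, 498 and 768 counts. Its receptor Cxcr6 was measured at 10.5, 11.4 and 11.9 TPM. Both proteases that release the Cxcl16 ectodomain were present, with Adam17 at 50.8 ± 1.33 TPM and Adam10 at 15.7 ± 1.81 TPM. The list of 5 proteases that act on these proteins also held Dpp4, Mmp9 and Mmp12. None of these 3 was at 1 TPM in every library of the gene table. Read-based, Mmp12 had 4.34, 4.50 and 4.79 TPM, while Dpp4 and Mmp9 stayed under 1 TPM. Zmynd15, a zinc finger gene on the opposite strand, overlaps Cxcl16, averaged 9.37 ± 1.57 TPM and shares 18.5% of the 31-base words of Cxcl16 transcripts. The same limit on strand applies to it.

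The 3 receptor genes were low but present in every library. Ccrl2 averaged 4.54 ± 1.35 TPM on 121, 105 and 136 counts, with replicate 1 the highest. Cxcr4 averaged 2.16 ± 0.29 TPM on 46, 27 and 58 counts. Ccr1 averaged 1.88 ± 0.69 TPM on 41, 60 and 118 counts, with replicate 3 the highest. In the gene table, Cxcr4 was 1 of 2 among 6 CXC receptors with at least 1 TPM in every library, the other being Cxcr6. Ccr1 was 1 of 4 among 13 CC, XC and CX3C receptors, with Ccr9, a homing receptor of gut and thymus, at 3.03 ± 0.53 TPM. Read-based, 3 of the 6 and 6 of the 13 reached that level, Cxcr4 and Ccr1 among them. Ccrl2 was the highest of 6 atypical and scavenging receptors, and Ackr4, a scavenger of Ccl19 and Ccl21, was next at 3.27 ± 0.61 TPM. Ackr4 had 2.63, 3.84 and 3.34 TPM, above Ccrl2 in replicate 2, so the pair was not separated.

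Ligands and partners of these receptors differed in level. All 5 Ccr1 ligands listed had at least 1 TPM in every library, led by Ccl5 at 188.4 ± 24.99 TPM and Ccl3 at 33.5 ± 7.36 TPM. The Cxcr4 ligand Cxcl12 had 0, 0.16 and 15.8 TPM, on 0, 5 and 518 counts, and was thus measured almost wholly in replicate 3. Of the chemerin genes, the signalling receptor Cmklr1 averaged 117.4 TPM in the read-based table and 9.55 ± 2.49 TPM in the gene table, while chemerin itself, Rarres2, averaged 0.51 ± 0.13 TPM. Downstream, 19 of 20 receptor signalling genes had at least 1 TPM in every library, the highest being Dock2, a Rac activator in leukocyte migration, at 358.3 ± 40.8 TPM, and Arrb2, which encodes beta-arrestin 2, at 340.1 ± 37.5 TPM. Pf4, a CXC ligand of platelets and macrophages, averaged 2.34 ± 1.16 TPM. Of 72 listed genes, 41 had enough counts for the test of spread described below and 0 of these were called, while Cxcl12 was among those not tested.

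**Figure D3:**
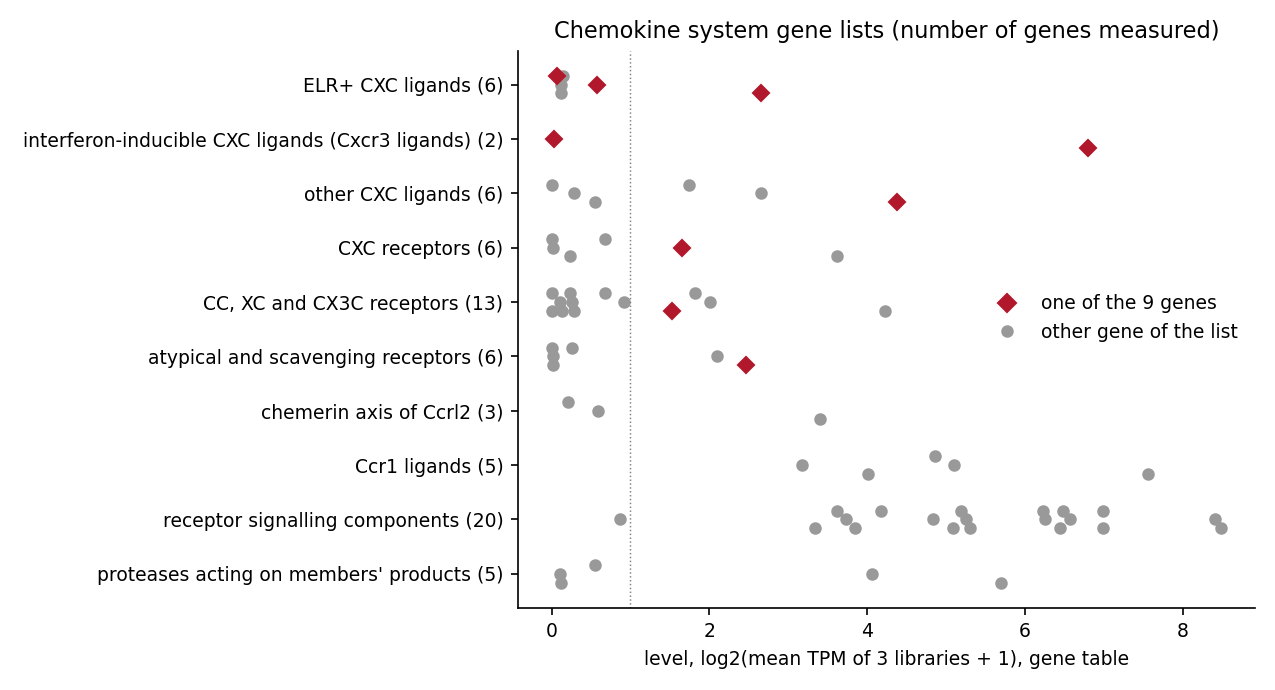
Mean level over 3 libraries, as log2(TPM + 1) in the gene table, of every measured gene of the pathway lists, 1 row per list. Diamonds are the genes described here, circles the other genes of each list, and the dotted line is 1 TPM. Signalling genes and Ccr1 ligands lie mostly to the right, and most receptors lie left of 1 TPM.

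Transcript models gave a view of RNA that keeps intron sequence at the ligand genes. The read-based transcript table splits each gene's TPM over its annotated isoforms, and a model annotated as retained intron keeps intron sequence. Such a model can be spliced at other introns, so its share is not the share of unspliced RNA. Retained-intron models held 70.1%, 74.8% and 68.4% of Cxcl10 TPM in replicates 1, 2 and 3 (71.1% ± 3.28, SD, n = 3). One of them, Cxcl10-204, is a single exon of 2230 bases that spans 99.0% of the gene and held 49.3% ± 2.29. The other, Cxcl10-203, has 2 exons and 344 bases and held 21.8% ± 5.06, on 59.6, 52.2 and 48.3 estimated counts. The spliced coding model Cxcl10-201 held 26.5% ± 4.89. The 3 libraries were close to each other although the level of Cxcl10 differed between them.

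The neutrophil-attracting ligands had the same kind of single-exon model. At Cxcl2, retained-intron models held 67.9%, 68.3% and 56.5%, and the single-exon model Cxcl2-203 held 54.4% ± 12.3. At Cxcl1, the single-exon model Cxcl1-202 held 58.9%, 78.1% and 86.3%, on 16, 27 and 62 estimated counts for the whole gene. At Cxcl3, all signal of the read-based table was in the single-exon model Cxcl3-202, at 0.18, 0.32 and 0.36 TPM, and the coding model was at 0. At Cxcl16, the retained-intron model Cxcl16-203, which has 6 exons, held 50.6%, 53.5% and 49.9%. The coding model Cxcl16-201 held 44.4% ± 0.29. At Cxcl9, all read-based TPM was in the coding model Cxcl9-201 and none in the retained-intron model Cxcl9-202. That model has 370 bases in 2 exons and spans 21.6% of the gene. Cxcl9 thus has no single-exon model to set beside those above, and its gene-table counts were 0, 1 and 2.

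Of the 6 genes with a retained-intron model, 5 had a mean share of at least 50%. The background was 44.2% of 7581 protein-coding genes with such a model and at least 1 TPM. Cxcl1 and Cxcl3, 2 of the 5, were themselves under 1 TPM. The median share of those background genes was 45.8%, with quartiles of 26.9% and 64.3%. In the alignment-based transcript table Cxcl3 and Cxcl9 had no mean share, since each had no counts in at least 1 library. Of the other genes with such a model, 2 reached 50%, Cxcl10 at 68.8% and Cxcl2 at 61.1%. Cxcl16 had 32.7% ± 1.91 there and Cxcl1 had 37.0%, 30.0% and 77.4%, while Cxcl3 had 0% in replicate 3, the only library with counts. As a share of read-based estimated counts, 4 reached 50%, with Cxcl16 at 39.3%. The share of all genes that reached 50% was not computed for the alignment-based table or for estimated counts. Cxcr4, Ccr1 and Ccrl2 have no retained-intron model, so no such share exists for the receptors. For Ccrl2, the coding model Ccrl2-201 held 50.6%, 82.2% and 70.3%.

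**Figure D4:**
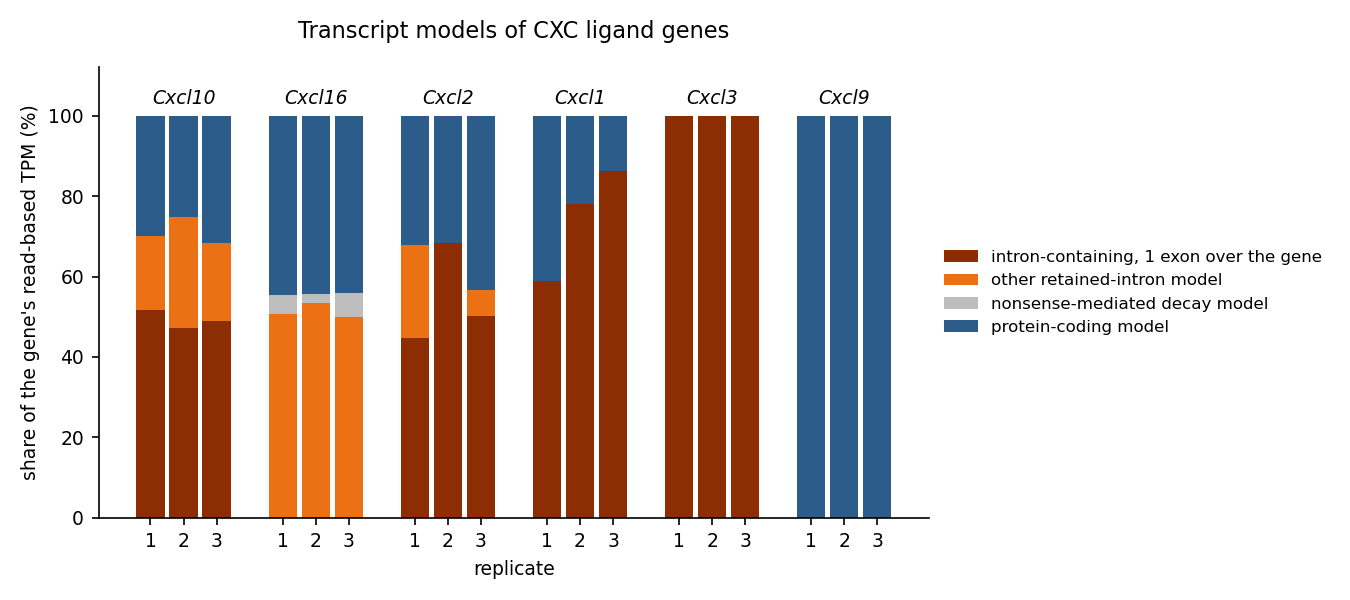
Share of each ligand gene's read-based TPM by class of transcript model, 1 bar per library. Brown and orange are retained-intron models, grey a nonsense-mediated decay model and blue coding models. Intron-containing models hold most of Cxcl10, Cxcl2, Cxcl1 and Cxcl3 and none of Cxcl9, which has no single-exon model.

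The read-based mean lay more than 1 SD from the gene-table mean for 5 of the 9 genes (Cxcl1, Cxcl3, Cxcl9, Cxcl16 and Cxcr4). The share of all protein-coding genes past this mark was not computed, and a gene with a small SD passes it on a small difference. As a ratio, the difference was widest at Cxcl9. Cxcl9 had 1.59, 1.04 and 1.58 TPM in the read-based table, on 66.3, 74.2 and 115.8 estimated counts, against 0, 0.03 and 0.04 TPM in the gene table. The log2 ratio of read-based to gene-table TPM, with 0.1 TPM added to each, was 3.60 ± 0.47. Cxcl9 was the only one of the 9 with read-based TPM at least 2-fold higher in every library, against a background of 21% of protein-coding genes, and with 1 TPM added in place of 0.1 the count was 0. None was 2-fold lower in every library, against 0.082%. Among protein-coding genes under 1 TPM in every library of the gene table, 17.3% had at least 1 TPM in every library of the read-based table, as Cxcl9 did. Of the 31-base words of Cxcl9 transcripts, 0.574% occur in another gene, over 229 genes in all.

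Cxcl10 went the other way within a smaller range, with 128, 45.4 and 57.8 TPM read-based against 158.3, 86.3 and 86.1 TPM in the gene table. Cxcl3 had 9.06, 27.5 and 32.7 estimated counts read-based against 0, 0 and 2 in the gene table. It shares 5.46% of its 31-base words with other genes, 2799 genes in all. Of the 193 shared words, 161 occur in Cxcl2. The median log2 ratio of read-based to gene-table TPM was 0.05 over the 9 genes and 0.35 over all protein-coding genes. Read-based, 7 of the 9 genes had at least 1 TPM in every library, against a background of 57.4%.

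Spread between libraries was tested on expected counts with edgeR, asking whether a gene's dispersion exceeded the trend of all genes. Of the 9 genes, 6 had enough counts to be tested and 0 were called at an adjusted p of 0.05, against a background of 24 of 14839 genes, or 0.162%. Cxcl10 alone had an unadjusted p under 0.05, as did 862 of all genes tested. Its normalized counts were 205.5, 74.3 and 86.4 CPM in replicates 1, 2 and 3, a 2.77-fold range set by replicate 1 (edgeR quasi-likelihood, adjusted p = 0.168). Without replicate 1 its adjusted p was 0.996 and its mean level 86.2 TPM. Without replicate 3, where only the difference between replicates 1 and 2 remains, the adjusted p was 0.000456, and over the alternatives tried it ran from 0.000456 to 0.996. The number of genes called over all genes moved to 38, 0 and 78 without replicate 1, 2 and 3.

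Cxcl2 had 6.52, 3.99 and 9.67 normalized CPM, a 2.39-fold range with replicate 3 highest (edgeR, adjusted p = 0.895). Cxcr4 had 3.85, 1.66 and 2.91, a 2.25-fold range with replicate 2 lowest (edgeR, adjusted p = 0.993). Cxcr4 rested on 46, 27 and 58 counts, and its 2.45, 1.87 and 2.16 TPM had a narrower spread. In normalized CPM, ranges of at least 2-fold were thus seen in 3 of the 6 genes, against a background of 9.38% of tested protein-coding genes. Cxcl16 ranged 1.30-fold, Ccrl2 1.56-fold and Ccr1 1.70-fold. In normalized CPM, replicate 2 was the lowest library for 5 of the 6, with Ccr1 as the exception. The share of all tested genes that were lowest in replicate 2 was not computed. In TPM, Cxcl2, Cxcl16 and Cxcr4 were again lowest there. Cxcl10 had 86.31 and 86.07 TPM in replicates 2 and 3, and Ccrl2 had 3.76 TPM in both. RNA input was 1000 ng for replicate 1, 250 ng for replicate 2 and 500 ng for replicate 3. The part of input in the order was not tested.

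**Figure D5:**
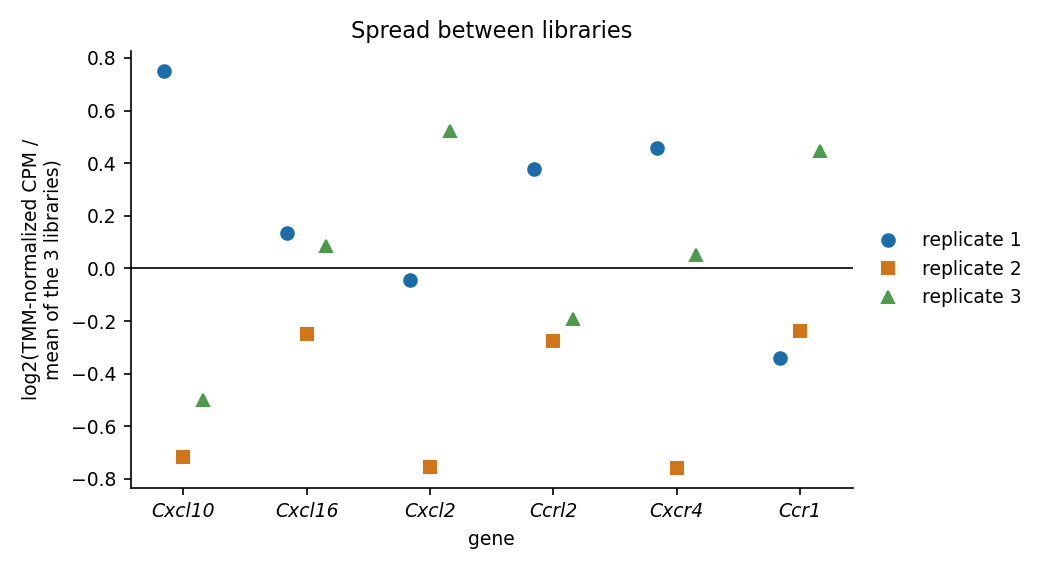
Normalized CPM of each tested gene in each library, as log2 of the value over the mean of the 3 libraries. Replicate 1 is highest for Cxcl10, Cxcl16, Ccrl2 and Cxcr4, replicate 3 for Cxcl2 and Ccr1, and replicate 2 is lowest for all but Ccr1.

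The libraries were checked for the labelled cell type and for others. All 10 macrophage markers had at least 1 TPM in every library, with Adgre1 at 347.2 ± 77.2 TPM and Csf1r at 126.8 ± 1.30 TPM. The 10 neutrophil markers summed to 4.40, 5.69 and 4.77 TPM in the read-based table, where Mpo averaged 1.95 TPM, and to 0.71, 0.96 and 1.94 TPM in the gene table, where none reached 1 TPM and Mpo was at 0. Stromal markers summed to 17.9, 20.4 and 479.2 TPM read-based and to 1.30, 2.57 and 596.4 TPM in the gene table, with Col1a1 at 149.3 TPM in replicate 3. Replicate 3 was also the library with Cxcl12 and with the highest Cxcl2 and Ccr1, and the part of the stromal signal in these levels was not tested. In bulk RNA, fewer cells of a type and less RNA per cell cannot be told apart. Endothelial markers summed to 63.9, 39.4 and 58.0 TPM in the read-based table, where Vwf averaged 33.2 TPM and Tie1 1.26 TPM. In the gene table they summed to 40.7, 31.3 and 41.0 TPM, with Vwf at 26.8 ± 5.17 TPM and Tie1 at 0. Of the 8 listed, 5 had at least 1 TPM in every library read-based and 4 in the gene table. Summed T cell, B cell and dendritic cell markers reached at most 19.7, 5.15 and 22.6 TPM in any library of the read-based table, where Cd3d averaged 11.4 TPM and Ebf1 3.05 TPM. In the gene table they reached at most 2.78, 1.21 and 11.9 TPM, with Cd3d at 0.033 TPM and Cd3e, Cd3g and Cd209a at 0. Of the 8 dendritic cell markers, 3 had at least 1 TPM in every library of the gene table and 5 read-based. Batf3 was the highest of them, at 5.59 TPM in the gene table and 9.62 TPM read-based.

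A sequence feature outside the promoters also differed among the ligands. The pentamer ATTTA is the core of AU-rich elements, through which decay factors shorten the life of cytokine mRNAs. In the longest annotated 3′ untranslated region of each gene, Cxcl2 held 11, Cxcl1 held 7 and Cxcl3 held 5 copies of ATTTA, and 4, 2 and 1 of these had TT on both sides. Cxcl10 and Cxcl9 held 3 copies each, Cxcl16 and Ccrl2 held 2 each, and Cxcr4 and Ccr1 held 1 each, none with TT on both sides. The Cxcl2 region was that of Cxcl2-202, which held 7.17% ± 6.35 of read-based Cxcl2 TPM, against 28.6% ± 5.10 for the coding model Cxcl2-201. The Cxcl10 region was that of Cxcl10-202, which held 2.43% ± 1.74 of read-based Cxcl10 TPM. In the other genes it came from the only coding model or the one with the largest share. The copies are thus counted in annotated models, not in the RNA measured here. Over 21020 genes, 21.6% held at least 5 copies of ATTTA and 7.66% held an ATTTA with TT on both sides. Per kilobase the 3 genes had 11.8 (Cxcl1), 7.75 (Cxcl3) and 7.36 (Cxcl2). The median was 1.35 over the 19921 genes left after those with the shortest regions were dropped.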

How the data were processed

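Each of the 3 libraries has a gene table and 2 transcript tables. Per the README deposited with each library, the gene table and 1 transcript table came from reads aligned to the transcriptome (mm10, GENCODE M21), and the read-based transcript table came from reads and an index. The aligner, the quantifier and whether strand was used are not stated in those sources. The authors deposited expected counts, which are estimated reads with no scaling. The TPM values deposited by the authors are scaled over all rows of a table. Depth was 11958978, 17283529 and 19475027 expected counts and 18600052, 31838203 and 33200218 read-based estimated counts in replicates 1, 2 and 3. Rows naming no gene held 1.31%, 0.476% and 0.240% of counts and were left out.

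Here, means, SDs, isoform shares and log2 ratios were computed with Python 3.11.15. Expected counts were rounded and fitted with edgeR 4.0.16 (filterByExpr, TMM, intercept only, robust prior), which tested each gene's quasi-dispersion against the trend with Benjamini-Hochberg adjustment. The step was also run on simulated counts with a single dispersion for all genes and changes in replicate 3 only. That setting differs from these data, so the run does not show how the test performs on them. With 3 libraries the smallest two-sided sign-flip p is 0.25, so no such test was run. No pair of libraries was a duplicate (chi-square of counts over its degrees of freedom, 39.1 to 72.0). The alternatives tried are listed with the limits. Values are given for all 9 genes, for the highest 2 genes of each pathway list, for defining markers, and for neighbouring, overlapping or partner genes picked for their place or role. The value of 1 listed gene is not reported here. The genes and lists were chosen with earlier results of these data known.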

Additional observations from a re-analysis of the deposited data

How the results depend on the processing

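Of the 9 genes, 6 reached 1 TPM in all 3 libraries, or 7 in the read-based table, and the count was 6 with a threshold of 0.5 TPM, renormalized TPM or any library left out. The number of over-dispersed genes was 24. It was 36 with DESeq2 size factors, 25 with read-based counts, 677 without a filter on low counts, 180 where the mean count was 50 or more, and 0 without the robust prior, an alternative chosen after seeing the data; leaving out a library gave 0 to 78. Of the 9 genes, 0 were called, except 1 (Cxcl10) without a filter (adjusted p = 0.0145) and 0 to 1 when a library was left out. The count 2-fold higher in the read-based table was 1. It was 0 with a pseudocount of 1 TPM and 1 to 2 with a library left out, the other gene being Cxcl3. Mean TPM moved by less than 1 SD for all 9 genes when any library was left out. With 3 libraries this holds by construction, so it is no measure of stability. Cxcl10 averaged 110.2 TPM, and 86.2 TPM without replicate 1. In the read-based table mean TPM moved by more than 1 SD for 5 of the 9 genes, and Cxcl9 averaged 1.40 TPM. Renormalizing TPM over nuclear genes of the protein-coding and long non-coding classes raises levels by construction and moved 8 of the 9 (Cxcl10 to 264 TPM, Cxcl16 to 46.3 TPM and Cxcl2 to 12.4 TPM). The count with a retained-intron share of at least 50% was 5, or 2 in the alignment-based table, where Cxcl3 and Cxcl9 had no mean share. Where a cause is not shown by the setting itself, the cause was not tested. No paired analysis was possible because there is 1 group. Cxcl1, Cxcl3 and Cxcl9 had at most 15 counts in a library and were not tested for spread.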
